A study of Mus musculus with 2 samples.

Results

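The killer-cell lectin-like receptors are C-type lectin surface proteins through which natural killer (NK) cells and subsets of T cells read other cells. The members were all gene symbols of the count table that start with Klr, and they numbered 26 of the 32285 genes counted. They comprised 11 Klra genes (the Ly49 receptors), 5 Klrb1 genes (the NKR-P1 receptors), the 4 genes of the CD94/NKG2 receptors (Klrd1, Klrc1, Klrc2 and Klrc3), Klrk1 (NKG2D), the 3 genes Klre1, Klri1 and Klri2, and the pair Klrg1 and Klrg2. Their RNA was measured by droplet single-cell sequencing in tumours grown in mice from Hepa1-6, an established mouse hepatoma line. In the CD147-LYTACs library the mice had received CD147-LYTACs, lysosome-targeting chimaeras named for the surface protein CD147 (the class of agents draws a surface protein into lysosomes), at 40 mg/kg in 4 doses given every 3 days. In the control library the treatment is labelled control, with no vehicle named. Both libraries were made from tumours taken on day 12, whose sorted CD45- and CD45+ cells were mixed again at 1 to 3 before loading. The route of dosing, the number of tumours pooled and the strain of the mice are not settled by the labels. There was 1 library per condition, so no difference between the libraries could be tested against replicates, and the CD45 mixing sets the share of immune cells.

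Signalling by these receptors runs in opposed directions. Inhibitory members carry a motif in the cytoplasmic tail that recruits phosphatases, and activating members signal through adaptor proteins such as DAP12, encoded by Tyrobp, and DAP10, encoded by Hcst. The CD94/NKG2 and Ly49 receptors bind class I MHC molecules, NKG2D binds stress-induced relatives of class I, NKR-P1 receptors bind Clec2 proteins, and KLRG1 binds cadherins. In NK cells the balance of these inputs sets the threshold for killing, and on CD8 T cells NKG2A, the Klrc1 product, acts as an inhibitory checkpoint.

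All 26 members lie on mouse chromosome 6 of GRCm38 and all are annotated as protein-coding. Apart from Klrg2, at chr6:38625693-38637242, they fall between the start of Klrg1 at 122270596 and the end of Klra2 at 131247362, and 23 of the 26 are transcribed from the minus strand. Neighbouring members share sequence, which bears on how well reads can be told apart. Of all 50-base words in the last 500 bases of its annotated transcripts, Klra9 shares 49.4% with another gene, Klrc1 43.5%, Klra3 31.5%, Klra7 22.1%, Klrc2 15.2% and Klra8 13.1%, against 4.66% for Klra4 and 0% for Klrd1, Klrk1, Klra2 and Klrg1. Values of Klrc1 beside Klrc2 and Klrc3, and of Klra8, Klra9 and Klra3 beside each other, are therefore uncertain to the extent that reads were lost or moved between copies. Exons of Klrb1b and Klrb1c overlap the same-strand gene Gm44511 as well.

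After filtering, 7641 barcodes were kept in the CD147-LYTACs library and 6689 in the control library, with medians of 6503 and 7309 UMIs (unique molecular identifiers, each standing for a counted RNA molecule). They held 32970 Klr UMIs in the CD147-LYTACs library and 40497 in the control library, which were 0.0243% and 0.0310% of all UMIs. Cells were assigned to gates by marker genes that include no Klr member. The NK gate held 99 cells of the CD147-LYTACs library and 89 of the control library, the CD8 gate 1847 and 2476, the CD4 gate 162 and 241, the Foxp3 gate of regulatory T cells 61 and 76, and the DN gate of T cells without Cd4, Cd8 or Foxp3 UMIs 243 and 350. Levels are UMIs of the gene per 1000000 UMIs of all cells of the gate (CPM). The UMIs tag molecules and were not divided by gene length, so levels are compared between cell types or libraries for the same gene, and shares of the family's UMIs describe the counts alone. Intervals are 95% intervals for counting error only and do not cover the spread between cells or animals. Of the T-cell barcodes, 14.0% in the CD147-LYTACs library and 6.03% in the control library also held markers of another lineage and were left out of the gates. The libraries shared 24 barcode sequences.

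The NK gate was checked on NK markers outside its own rule. The 6 listed NK markers that the rule did not use (Eomes, Txk, Gzma, Prf1, Xcl1 and Itga2) all had UMIs there, with a summed level of 5192 CPM in the CD147-LYTACs library and 5546 CPM in the control library, against 533 and 467 CPM in the CD8 gate. T-cell receptor RNA was present too, with a Trbc2 UMI in 33.3% and 22.5% of the NK-gate cells and a Trdc UMI in 15.2% and 13.5%, against 94.6% and 94.8% for Trbc2 in the CD8 gate. Ncr1, the gene of the NKp46 receptor, had a UMI in 16.2% and 22.5% of the NK-gate cells, so most of those cells rest on the other genes of the rule. Innate lymphoid cells other than NK cells cannot be told apart from NK cells by this gate.

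**Figure D1:**
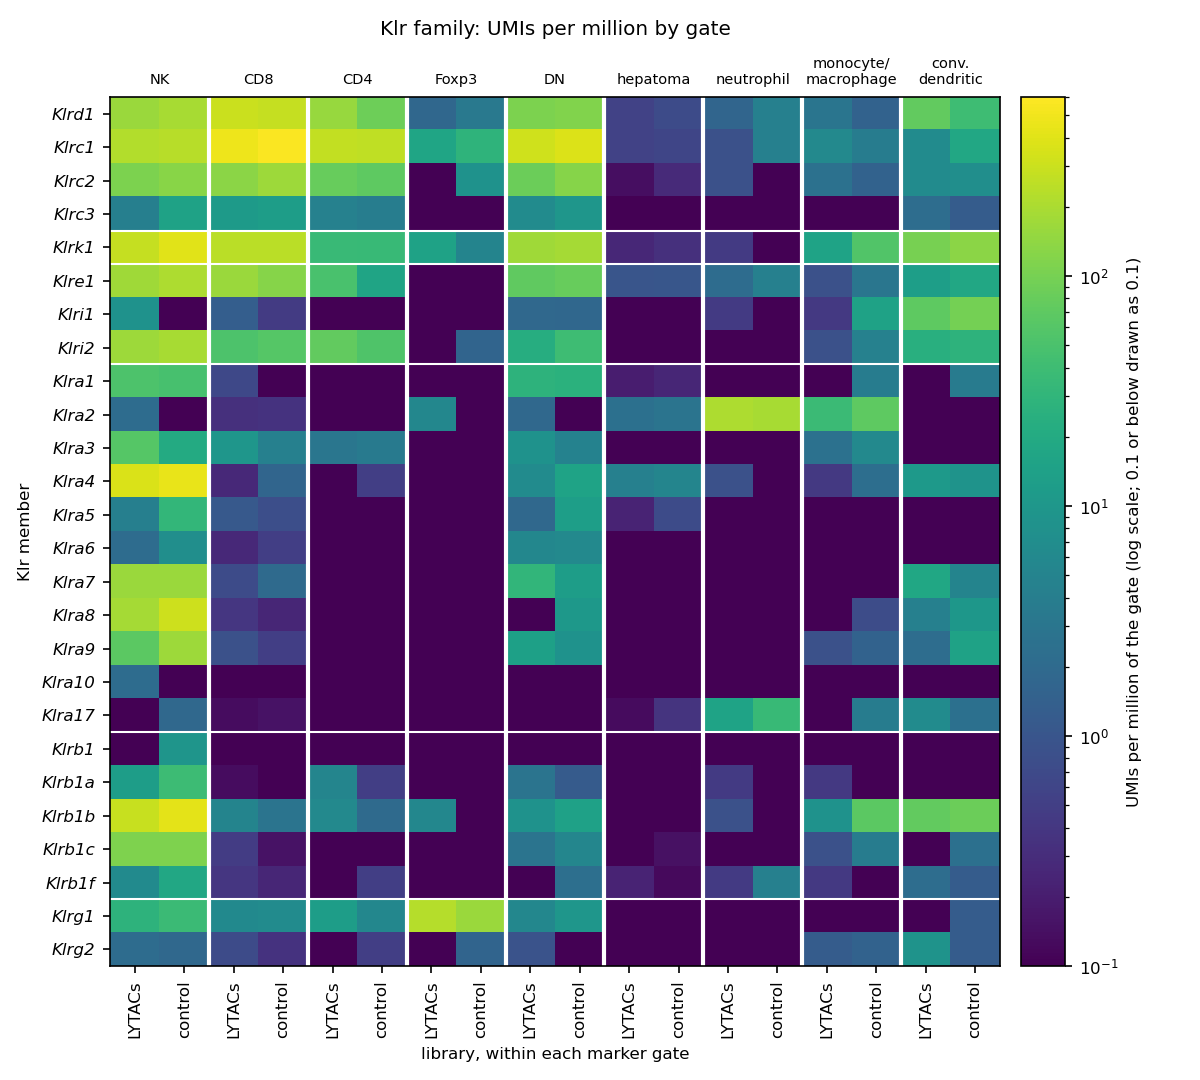
Levels of the 26 Klr members (rows, grouped by subfamily) in 9 marker gates, with the CD147-LYTACs library left of the control library in each gate; colour is CPM on a log scale. Ly49 and NKR-P1 rows are bright in the NK gate, CD94/NKG2 rows across NK, CD8, CD4 and DN gates, Klrg1 in the Foxp3 gate and Klra2 in neutrophils.

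The family divided by cell type in the same way in both libraries. In the NK gate, Ly49 members made up 36.7% of the Klr UMIs of the CD147-LYTACs library and 37.2% of those of the control library. The same members made up 1.03% and 0.737% in the CD8 gate. The CD94/NKG2 genes made up 65.5% and 69.4% of the Klr UMIs of the CD8 gate, against 20.1% and 17.7% in the NK gate. The CD8 gate held 63.8% of all Klr UMIs of the CD147-LYTACs library and 71.0% of those of the control library, and barcodes in no gate held 17.2% and 10.6%.

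Of the 17 members with at least 50 UMIs over the NK and CD8 gates, 11 were at least 2-fold higher in the NK gate than in the CD8 gate in both libraries. Among all genes with as many UMIs, 9.38% were. These 11 were Klrg1, Klrb1c, Klrb1b, Klri2 and the 7 Ly49 genes Klra1, Klra3, Klra4, Klra5, Klra7, Klra8 and Klra9. In the other direction 1 member, Klrc1, was at least 2-fold lower in the NK gate, against a background of 5% of genes. NK-gate Klrc1 stood at 224 CPM in the CD147-LYTACs library and 233 CPM in the control library, while CD8-gate Klrc1 stood at 476 and 564 CPM. The fold of Klra5 rests on 2 NK-gate UMIs in the CD147-LYTACs library. Because the minimum of 50 added both gates, a gene rare in the CD8 gate could enter through its NK-gate UMIs alone. Klra8 entered with 88 NK-gate UMIs in the CD147-LYTACs library and 169 in the control library, beside 6 and 5 in the CD8 gate. The counts of members and of all genes share this limit. The remaining 5 members, Klre1, Klrd1, Klrk1, Klrc2 and Klrc3, did not pass 2-fold in both libraries.

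Promoter windows were compared because members of the same family were counted in different cell types. RefSeq windows on GRCm38.p6 from 250 bases before to 50 bases after the RefSeq start were matched by symbol for 23 of the 26 members. The windows below belong to Klrc1, Klrc2 and Klre1, which all had UMIs in the NK, CD8 and CD4 gates, at levels that differed between gates. They span chr6:129678924-129679223 and chr6:129660547-129660846, both on the minus strand, and chr6:129577963-129578262 on the plus strand, and capitals mark the letters TGTGGT, the core bound by RUNX factors, on either strand.
Klrc1: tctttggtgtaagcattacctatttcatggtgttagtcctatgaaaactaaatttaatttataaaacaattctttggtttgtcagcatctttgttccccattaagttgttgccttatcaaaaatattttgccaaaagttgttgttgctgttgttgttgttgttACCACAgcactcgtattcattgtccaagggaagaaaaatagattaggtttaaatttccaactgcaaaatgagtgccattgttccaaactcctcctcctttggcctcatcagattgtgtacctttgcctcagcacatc
Klrc2: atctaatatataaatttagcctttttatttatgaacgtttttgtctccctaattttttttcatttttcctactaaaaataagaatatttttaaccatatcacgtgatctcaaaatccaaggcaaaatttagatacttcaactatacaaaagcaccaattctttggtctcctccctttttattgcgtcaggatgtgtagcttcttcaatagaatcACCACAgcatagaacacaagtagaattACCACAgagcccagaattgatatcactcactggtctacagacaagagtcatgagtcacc
Klre1: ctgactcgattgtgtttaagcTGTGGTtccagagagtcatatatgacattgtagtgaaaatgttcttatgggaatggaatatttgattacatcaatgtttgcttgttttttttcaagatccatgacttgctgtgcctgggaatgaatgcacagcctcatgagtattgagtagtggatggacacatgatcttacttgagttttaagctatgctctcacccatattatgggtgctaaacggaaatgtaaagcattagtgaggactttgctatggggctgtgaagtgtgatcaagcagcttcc
The core was found in 8 of the 23 Klr windows, those of Klrb1a, Klrb1c, Klre1, Klrk1, Klrc1, Klrc2, Klrc3 and Klra1, and in 16.9% of the windows of all 27025 genes in the table. The 5 genes with most CD8-gate UMIs among those with a window, Klrc1, Klrk1, Klre1, Klrc2 and Klrc3, all carried it. Klrd1 and Klri2, which had more CD8-gate UMIs than Klrc3, had no window. The Klrc2 and Klrc3 windows were identical at 85.3% of positions, so their matches are not separate. Klrb1c and Klra1, at least 2-fold higher in the NK gate than in the CD8 gate, carried the core too, and Klra4, Klra8 and Klra2 did not. Runx3, which encodes a RUNX factor, stood at 1131 CPM in the NK gate of the CD147-LYTACs library and 815 CPM in that of the control library, and at 345 and 265 CPM in the CD8 gate. The windows follow RefSeq starts, and the GENCODE starts differ for some members. In GENCODE, Klre1 starts at 129577905, ahead of its whole window, and Klrc2 at 129660689, ahead of its marked cores. The marked letters of these genes thus lie inside the genes as GENCODE places them. So do the whole windows of Klrb1a and Klrb1c. A match of letters is a description and was not tested as a binding site.

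The Ly49 windows show how alike the genes of different cell types are. Those of Klra4 and Klra8, counted in the NK gate, and of Klra2, counted in neutrophils, follow, at chr6:130067222-130067521, chr6:130129849-130130148 and chr6:131247313-131247612, all on the minus strand. Capitals mark TTGCNNAA, a core bound by C/EBP factors, on either strand.
Klra4: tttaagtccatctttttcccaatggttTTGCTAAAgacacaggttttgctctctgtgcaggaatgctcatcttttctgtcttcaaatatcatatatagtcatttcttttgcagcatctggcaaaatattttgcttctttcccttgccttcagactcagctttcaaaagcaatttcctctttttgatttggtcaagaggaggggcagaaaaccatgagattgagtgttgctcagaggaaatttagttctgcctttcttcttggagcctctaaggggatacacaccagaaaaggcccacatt
Klra8: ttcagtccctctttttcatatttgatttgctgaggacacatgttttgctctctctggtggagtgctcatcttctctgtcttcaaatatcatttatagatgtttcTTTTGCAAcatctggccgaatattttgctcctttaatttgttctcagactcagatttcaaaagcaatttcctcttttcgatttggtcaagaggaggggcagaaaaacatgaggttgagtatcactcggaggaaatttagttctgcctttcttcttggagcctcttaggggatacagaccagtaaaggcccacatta
Klra2: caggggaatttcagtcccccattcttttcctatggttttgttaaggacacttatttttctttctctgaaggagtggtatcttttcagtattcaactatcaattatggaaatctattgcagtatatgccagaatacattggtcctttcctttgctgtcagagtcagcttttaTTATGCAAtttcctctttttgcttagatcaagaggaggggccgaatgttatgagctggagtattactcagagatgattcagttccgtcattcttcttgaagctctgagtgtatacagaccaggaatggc
Aligned end to end, the Klra4 and Klra8 windows were identical at 86.3% of positions, and the Klra2 window matched Klra4 at 74.0% and Klra8 at 73.7%. The core was present in 10 Klr windows, those of Klrk1, Klrc1, Klra17, Klra5, Klra6, Klra4, Klra8, Klra10, Klra3 and Klra2, against 10.8% of all windows. It stood in the window of Klra2, counted in neutrophils, and in those of Klra4, Klra8 and Klra3, and was not found in those of the NK-gate genes Klra7, Klra9, Klra1, Klrb1b and Klrb1c. The T-box core TCACAC was found in 3 Klr windows (14.4% of all windows) and the ETS core AGGAAG in 7 (35.1%), and matches of different motifs overlapped in 0 Klr windows.

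Among the Ly49 genes the levels in the NK gate spanned a wide range. Klra4 encodes Ly49D, an activating receptor, and stood at 371 CPM in the CD147-LYTACs library and 445 CPM in the control library. Klra8 encodes Ly49H, the activating receptor for a cytomegalovirus protein, and stood at 187 and 314 CPM. Klra7, encoding the inhibitory Ly49G, stood at 162 and 160 CPM, the same level in both libraries. Each of these 3 genes was, in the CD8 gate, at or below 2.04 CPM in both libraries.

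Of the other Ly49 genes in the NK gate, Klra9, Klra3 and Klra5 differed between the libraries and Klra1 was near level. Klra9, the inhibitory Ly49I, had 32 UMIs in 15 NK-gate cells of the CD147-LYTACs library and 89 UMIs in 27 cells of the control library, or 68.1 and 166 CPM. Klra1, the inhibitory Ly49A, stood at 53.2 and 48.4 CPM. Klra3, the inhibitory Ly49C, had 28 UMIs in 12 cells of the CD147-LYTACs library and 11 UMIs in 8 cells of the control library, or 59.6 and 20.5 CPM, and falls under the 50-UMI minimum in this gate. Klra9 and Klra3 thus leaned opposite ways; they share a window identity of 90.3% and 50-base words at their 3' ends, and a transfer of reads between them was not tested. Klra5 had 2 NK-gate UMIs in the CD147-LYTACs library and 17 in the control library, and Klra6 and Klra10 were near 0 there.

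In NK cells each Ly49 gene is known to be switched on in a subset of cells, so that cells carry different combinations. With every cell thinned to 2000 UMIs, 59.6% of 94 NK-gate cells of the CD147-LYTACs library and 69.3% of 88 cells of the control library showed a UMI of any Ly49 gene. The mean number of Ly49 genes seen per cell was 1.02 in the CD147-LYTACs library and 1.23 in the control library, with at most 4 and 3. Without thinning, the means were 1.38 and 1.73. The plot of Ly49 number per cell shows more cells at 0 in the CD147-LYTACs library (38 of 94) than in the control library (27 of 88) and fewer at 2 (19 against 29).

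**Figure D2:**
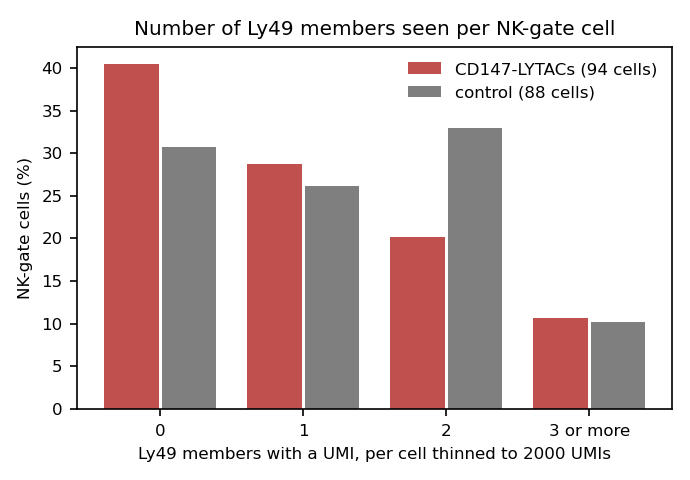
Number of Ly49 members with a UMI per NK-gate cell after thinning to 2000 UMIs (x axis) against the percent of NK-gate cells (y axis), for 94 cells of the CD147-LYTACs library and 88 of the control library. Cells with none made up 40.4% in the CD147-LYTACs library and 30.7% in the control library.

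The activating pair Klra4 and Klra8 tended to be seen in the same cells. In the CD147-LYTACs library 63.2% of the 19 NK-gate cells with a Klra8 UMI also had a Klra4 UMI (95% exact binomial interval 38.4% to 83.7%), against 24.0% of the 75 cells without one (14.9% to 35.3%). In the control library the shares were 55.6% of 27 cells (35.3% to 74.5%) and 21.3% of 61 cells (11.9% to 33.7%). The intervals with and without Klra8 did not overlap in either library. Of the words at its 3' end, Klra4 shares 4.66% with another gene and Klra8 13.1%, and a transfer of reads was not tested. The gate also held unlike cells, with a Trbc2 UMI in 33.3% of the CD147-LYTACs library and 22.5% of the control library. Thinned to 2000 UMIs, 40.4% and 30.7% of its cells showed no Ly49 UMI. The part of this mixture in the shared detection of Klra4 and Klra8 was not tested, and cells of 1 library are not replicates.

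CD8-gate cells held few Ly49 UMIs, at 14.5 CPM summed in the CD147-LYTACs library and 10.8 CPM in the control library. Klra3 was the leading one, with 143 UMIs in 60 of 1847 CD8-gate cells of the CD147-LYTACs library and 86 UMIs in 39 of 2476 cells of the control library. The whole-gate level was 9.58 CPM (8.07 to 11.3) against 4.39 CPM (3.51 to 5.42) (log2 ratio 1.13, interval 0.73 to 1.53). The direction was not the same in all CD8 cells: those with UMIs of Pdcd1 and Havcr2, the genes of PD-1 and TIM-3, held 124 and 45 Klra3 UMIs in the CD147-LYTACs and control libraries (log2 ratio 1.77, interval 1.27 to 2.30), and those with Pdcd1 without Havcr2 held 9 and 34 (log2 ratio -1.44, interval -2.68 to -0.35). That difference between the states was not tested. Thinned to 1000 UMIs, Klra3 was seen in 1.19% of CD8-gate cells of the CD147-LYTACs library (0.749% to 1.80%) and 0.364% of those of the control library (0.166% to 0.689%). In the hepatoma gate it was seen in 0 of 1939 thinned cells of the CD147-LYTACs library, and 0 of 1750 of the control library, which at 3 counts allows up to 0.155% and 0.171% of cells with a UMI at that depth.

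The DN gate held more. Ly49 genes summed to 97.5 CPM in the CD147-LYTACs library and 96.8 CPM in the control library. Klra7 had 33 UMIs in 14 DN cells of the CD147-LYTACs library, or 30.9 CPM, and 21 UMIs in 11 cells of the control library, or 12.6 CPM. Klra1 stood at 28.1 and 25.9 CPM, and 1 DN cell held 16 of its 30 UMIs in the CD147-LYTACs library. Of the DN cells with a UMI of Zbtb16, the factor of innate-like T cells, 4 of 19 in the CD147-LYTACs library and 4 of 22 in the control library had a Ly49 UMI, while of DN cells with neither Zbtb16 nor Trdc 18 of 213 and 25 of 319 did.

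Klra2 and Klra17 stood apart from the other Ly49 genes. Klra2, encoding the inhibitory Ly49B of myeloid cells, stood at 203 CPM in the neutrophil gate of the CD147-LYTACs library (657 cells) and 191 CPM in that of the control library (59 cells). In the monocyte or macrophage gate it stood at 37.9 CPM (327 cells) and 70.1 CPM (144 cells), and in the NK gate it had 1 UMI in the CD147-LYTACs library and 0 in the control library. Thinned to 1000 UMIs, 17.5% of neutrophils of the CD147-LYTACs library and 15.8% of those of the control library showed it, against 0.0542% and 0.0404% of CD8-gate cells. The level per neutrophil RNA was alike although the neutrophil gate held 657 cells in the CD147-LYTACs library and 59 in the control library. Klra17, encoding Ly49Q, stood at 15.6 and 35.5 CPM in neutrophils, from 36 and 8 UMIs.

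Tumour cells also held Klra4 UMIs. In the hepatoma gate Klra4 had 418 UMIs in 209 of 1943 cells of the CD147-LYTACs library, or 4.46 CPM, and 471 UMIs in 219 of 1751 cells of the control library, or 5.30 CPM. Klra8, which in the NK gate had 1 UMI for every 1.98 of Klra4 in the CD147-LYTACs library and for every 1.41 in the control library, had 1 and 4 UMIs there. In the same gate Gzma, the most abundant NK marker, had 35 and 21 UMIs. In the NK gate Gzma had 1449 UMIs in the CD147-LYTACs library and 1902 in the control library, beside 174 and 239 of Klra4. Klra2 had 229 and 252 hepatoma-gate UMIs, at 2.44 and 2.83 CPM, while S100a8, a leading neutrophil gene, had 440 and 76. Klra4 was at 4.81 CPM (4.30 to 5.37) and 5.93 CPM (5.34 to 6.57) in the hepatoma cells with UMI totals at or above their median and at 3.61 CPM (2.93 to 4.40) and 3.80 CPM (3.10 to 4.62) in those below it. The source of these UMIs, genic, from free RNA or from reads placed in the gene by sequence likeness, was not tested.

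The NKR-P1 genes were led by Klrb1b, the inhibitory receptor for the Clec2d product. It stood at 288 CPM (241 to 340) in the NK gate of the CD147-LYTACs library and 426 CPM (373 to 485) in that of the control library. Klrb1c, the activating member used as a surface marker of NK cells, stood at 111 and 110 CPM. Klrb1c was thus level between the libraries and Klrb1b lower in the CD147-LYTACs library, with a log2 ratio of -0.57 (-0.89 to -0.25). Klrb1a had 6 NK-gate UMIs in the CD147-LYTACs library and 21 in the control library. Klrb1f and Klrb1 were rarer, with 43 and 39 UMIs for Klrb1f and 7 and 8 for Klrb1 over all deposited barcodes of the CD147-LYTACs and control libraries.

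Klrb1b UMIs were also counted outside the NK gate. In the conventional dendritic gate, of 42 cells in the CD147-LYTACs library and 56 in the control library, it stood at 75.2 and 85.9 CPM, beside Klrk1 at 99.5 and 131 CPM and Klri1 at 68.5 and 98.4 CPM. The 6 NK markers outside the NK gate's rule summed to 137 and 237 CPM in those cells, against 5192 and 5546 CPM in the NK gate. Of these, Gzma stood at 68.5 and 120 CPM, against 3086 and 3539 CPM in the NK gate. Ncr1 stood at 8.84 and 4.98 CPM in the dendritic gate, against 44.7 and 63.3 CPM in the NK gate. The part of NK-cell RNA in the dendritic-gate values was not tested. Klri1, whose protein pairs with that of Klre1 as an inhibitory receptor, was near 0 in the NK gate, with 4 UMIs in the CD147-LYTACs library and 0 in the control library. In the monocyte or macrophage gate Klrb1b stood at 8.52 CPM in the CD147-LYTACs library (20 UMIs, 11 cells) and 66.3 CPM in the control library (87 UMIs, 24 cells), Klrk1 at 15.3 and 57.2 CPM and Klri1 at 0.426 and 15.2 CPM. The summed level of the 7 dendritic markers in that gate was 82.7 CPM in the CD147-LYTACs library and 192 CPM in the control library. Of the 7, 5 and 6 were detected. Ccr7 made up most of the sum, at 72.0 and 168 CPM, and Clec9a stood at 6.39 and 11.4 CPM. Flt3 stood at 1.28 and 0.762 CPM and Fscn1 at 0 in both. The gate left out barcodes with at least 3 UMIs of the dendritic markers other than Ccr7, which holds the levels of those markers down. The part of dendritic cells in the monocyte or macrophage values was not tested.

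Klrd1, Klrc1 and Klrc2 were each seen in more than 50% of the CD8-gate cells. Klrd1 encodes CD94, the chain that pairs with the NKG2 chains of the Klrc genes, Klrc1 the inhibitory NKG2A and Klrc2 the activating NKG2C. At least 1 Klrc1 UMI was found in 89.1% of CD8-gate cells of the CD147-LYTACs library and 91.8% of those of the control library, at median depths of 6531 and 6567 UMIs. In the hepatoma gate, at median depths of 43721 and 47453 UMIs, the shares were 2.68% and 3.03%. Klrd1 was found in 76.4% and 72.1% of CD8-gate cells and Klrc2 in 54.1% and 58.9%.

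Within the CD8 gate the members of these receptors leaned in opposite directions by small amounts. Klrc1 stood at 476 CPM (465 to 487) in the CD147-LYTACs library and 564 CPM (553 to 574) in the control library (log2 ratio -0.24, interval -0.29 to -0.20). Klrc2 stood at 134 CPM (128 to 140) and 166 CPM (160 to 172) (log2 ratio -0.31, interval -0.39 to -0.23). Klrd1 stood at 302 CPM (293 to 311) and 276 CPM (268 to 283) (log2 ratio 0.13, interval 0.08 to 0.19). The counting intervals of the libraries did not overlap for these 3 genes, and with 1 library each the spread between animals is unknown. Klrc1 UMIs per Klrd1 UMI were 1.57 in the CD147-LYTACs library and 2.04 in the control library. Klrc3, encoding NKG2E, stood at 11.6 and 12.8 CPM and was found in 8.18% and 8.36% of the cells.

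After thinning to 1000 UMIs Klrc1 was seen in 37.8% of CD8-gate cells of the CD147-LYTACs library and 45.1% of those of the control library, and Klrd1 in 26.2% and 22.2%. The shares kept the direction of the levels. Klrd1 was seen together with Klrc1 or Klrc2 in 12.5% and 12.2% of the thinned cells.

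Klre1, which encodes a partner chain for the KLRI receptors, was higher in the CD8 gate of the CD147-LYTACs library. It stood at 161 CPM (155 to 168) in the CD147-LYTACs library and 123 CPM (118 to 128) in the control library (log2 ratio 0.39, interval 0.31 to 0.48). A UMI was found in 52.2% and 43.1% of CD8-gate cells. Its partner Klri2, whose product makes the activating form, leaned the other way, at 52.9 CPM (49.2 to 56.7) and 60.4 CPM (57.0 to 63.9). Thinned to 2000 UMIs, Klre1 was seen in 32.7% of 168 CD8-gate cells with a Klri2 UMI (25.7% to 40.4%) and 25.5% of 1661 cells without one (23.4% to 27.7%) in the CD147-LYTACs library. In the control library the shares were 29.1% of 237 cells (23.4% to 35.3%) and 16.9% of 2225 cells (15.4% to 18.6%).

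Klrk1, encoding the activating receptor NKG2D, was level in the CD8 gate. It stood at 242 CPM (234 to 250) in the CD147-LYTACs library and 244 CPM (238 to 252) in the control library (log2 ratio -0.01, interval -0.08 to 0.05). The NK gate was different in size, with 275 CPM (229 to 326) and 411 CPM (359 to 469) (log2 ratio -0.58, interval -0.91 to -0.26), from 99 and 89 cells.

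Members past 1.5-fold between the libraries are given by gate, beside the share over all genes with as many UMIs. Between 1 and 13 of the 26 members reached 50 UMIs in a gate over both libraries. In the NK gate, 0 of the 13 members with at least 50 UMIs were that much higher in the CD147-LYTACs library and 2 were lower, Klra8 and Klra9, against 5.52% higher and 8.85% lower of the 3605 genes with as many UMIs. Klra8 had a log2 ratio of -0.75 (-1.14 to -0.37) and Klra9 of -1.28 (-1.91 to -0.68). The median log2 ratio of the 13 members was -0.24, against -0.03 over all genes tested. The summed Klr level of the NK gate was 2483 CPM in the CD147-LYTACs library and 3213 CPM in the control library, for a log2 ratio of -0.37 (-0.48 to -0.26). Of the 99 and 89 cells, 95 and 89 held a Klr UMI. The size of the summed ratio depended on the gate: it was -1.35, with 13 members past 1.5-fold, when barcodes with markers of another lineage were kept, and -0.0561 when an Ncr1 UMI was required.

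In the CD8 gate, 2 of 11 members were at least 1.5-fold higher in the CD147-LYTACs library, Klra3 and Klrb1b, and 1 lower, Klra7, against 3.12% higher and 1.87% lower of 11357 genes. All 3 were rare there. Klrb1b had 76 UMIs in 23 cells of the CD147-LYTACs library, 20 of them in 1 cell, and 55 UMIs in 27 cells of the control library, for 5.09 and 2.81 CPM. Klra7 had 11 UMIs in 7 cells of the CD147-LYTACs library and 40 UMIs in 9 cells of the control library, where 1 cell held 15 of them. Without the cell with most UMIs in each library, the log2 ratio of Klrb1b was 0.74 (0.14 to 1.34), of Klra7 -1.25 (-2.61 to -0.06) and of Klra3 1.14 (0.73 to 1.56). As a mean over cells the log2 ratio of Klrb1b was 0.24, under 1.5-fold, so that 2 members passed in place of 3, Klra3 at 1.40 and Klra7 at -1.10. The median over the 11 members was -0.12, against -0.03 over all genes, and the summed levels were 1409 and 1467 CPM (log2 ratio -0.06, interval -0.08 to -0.03). That small ratio was -0.16 with barcodes of mixed lineage kept and -0.0165 without mitochondrial and ribosomal protein genes.

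Genes of myeloid and NK cells differed between the libraries in the CD8 gate too, in both directions. Tyrobp stood at 13.0 CPM in the CD147-LYTACs library and 3.88 CPM in the control library, Fcer1g at 24.3 and 11.7 CPM and Syk at 10.3 and 3.27 CPM. They were the 3 of 17 tested genes of the adaptor and signalling list past 1.5-fold higher, with 0 lower. Over all genes tested in the gate, 3.12% were higher and 1.87% lower. The 5 neutrophil markers summed to 18.8 and 4.24 CPM, with 4 of 5 detected and Cxcr2 at 0 in both, and the 9 macrophage markers to 133 and 162 CPM, with all 9 detected. The 10 NK markers summed to 1742 CPM in the CD147-LYTACs library and 1409 CPM in the control library, and to 571 and 482 CPM without Nkg7, with Ncr1 at 0.268 CPM and 0. Their part in the Klrb1b and Klra3 values was not tested.

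**Figure D3:**
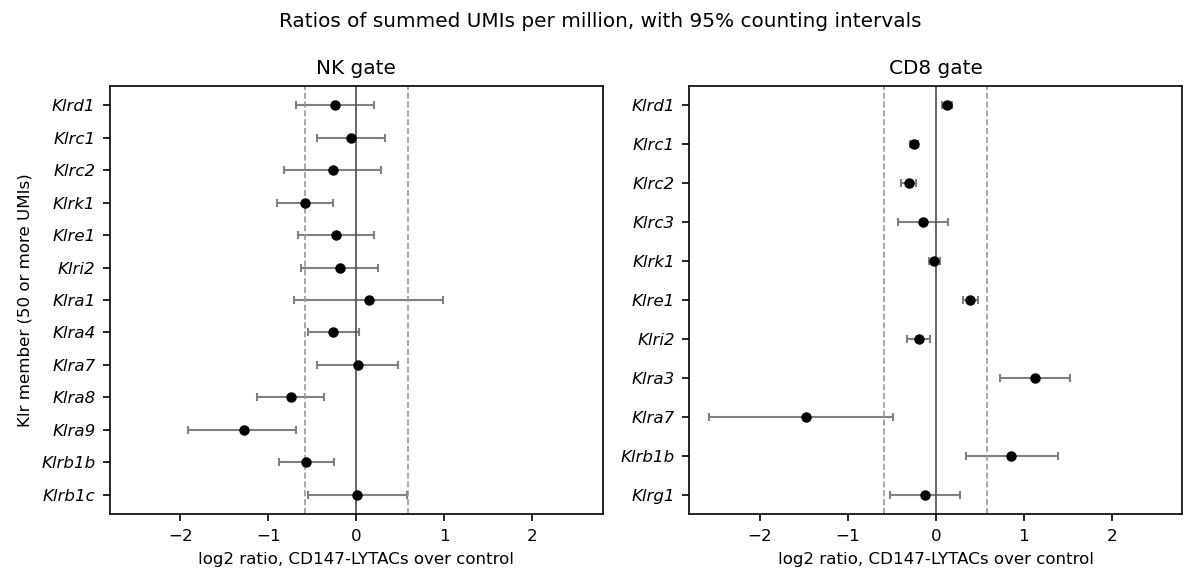
Log2 ratio of the level in the CD147-LYTACs library over that in the control library (x axis) for each member with at least 50 UMIs (rows), in the NK gate (left) and the CD8 gate (right), with 95% counting intervals; dashed lines mark 1.5-fold. Klra8 and Klra9 lie beyond the lower line in the NK gate, and Klra3, Klrb1b and Klra7 beyond a line in the CD8 gate.

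Conventional CD4 T cells carried CD94/NKG2 RNA too. In the CD4 gate, from which cells with a Cd8a or Cd8b1 UMI were left out, Klrc1 stood at 273 CPM in the CD147-LYTACs library and 264 CPM in the control library, and 59.3% and 53.1% of the cells had a UMI. In cells with at least 2 Cd4 UMIs, 113 and 191, the level was 295 CPM (263 to 330) and 287 CPM (262 to 314), and in cells with 1 Cd4 UMI 203 CPM (156 to 260) and 141 CPM (102 to 189). Klrk1 was low there, at 36.2 and 35.3 CPM, against 242 and 244 CPM in the CD8 gate. The CD4 gate therefore held Klrc1 without much Klrk1, in both libraries.

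Klrd1 and Klre1 were higher in the CD4 gate of the CD147-LYTACs library. Klrd1 had 206 UMIs in 67 cells there, or 155 CPM, and 172 UMIs in 69 cells of the control library, or 86.8 CPM (log2 ratio 0.84, interval 0.54 to 1.14). Klre1 stood at 48.96 and 16.2 CPM (log2 ratio 1.6, interval 0.97 to 2.26). Thinned to 1000 UMIs, Klre1 was seen in 3 of 162 CD4-gate cells of the CD147-LYTACs library and 2 of 241 of the control library. As a mean over cells the log2 ratio was 0.59 for Klrd1 and 1.04 for Klre1. Klrd1 and Klre1 were 2 of 6 members past 1.5-fold, with 0 lower, against 3.82% higher and 5.15% lower of all genes tested in the gate. Klri2 stood at 75.3 and 55.5 CPM. The 10 NK markers summed to 761 CPM in the CD147-LYTACs library and 481 CPM in the control library in this gate, with 9 of 10 detected and Ncr1 at 0 in both, and Nkg7, which T cells also express, stood at 655 and 341 CPM of that. The other 9 summed to 105 and 140 CPM, so that without Nkg7 the list leaned lower in the CD147-LYTACs library, and its part in the Klr values was not tested. The summed Klr log2 ratio was 0.36 (0.24 to 0.49), and 0.15 as a mean over cells.

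In the DN gate Klrc1, Klrc2 and Klri2 were lower in the CD147-LYTACs library, with counting intervals below 0, and Klra7 was higher. The intervals of the other members with at least 50 UMIs there included 0. Klrc2 stood at 84.3 CPM in the CD147-LYTACs library and 124 CPM in the control library, for a log2 ratio of -0.55 (-0.93 to -0.19). Klri2 stood at 22.5 and 40.3 CPM and Klrc1 at 323 and 378 CPM. Of 8 members, Klra7 was past 1.5-fold higher and Klri2 lower, against 3.65% and 4.71% of all genes. The summed log2 ratio was -0.23 (-0.34 to -0.11), and -0.49 with barcodes of mixed lineage kept.

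The Foxp3 gate was different in kind. Klrg1, an inhibitory receptor for cadherins and a marker of effector regulatory T cells, stood at 226 CPM (188 to 270) in the CD147-LYTACs library and 164 CPM (133 to 200) in the control library, while in the CD8 gate it stood at 6.16 and 6.69 CPM. Klrg UMIs were 83.6% of the Klr UMIs of the Foxp3 gate in the CD147-LYTACs library and 78.0% in the control library. A Klrg1 UMI was found in 28 of 61 and 36 of 76 Foxp3-gate cells. Its log2 ratio between the libraries was 0.46 (0.07 to 0.86), and it was the only member of this gate with 50 UMIs, so 0 of 1 passed 1.5-fold, against 6.53% higher and 9.32% lower of all genes. The summed Klr log2 ratio of the gate was 0.35 (-0.00447 to 0.70).

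CD8 cells at different states differed in these receptors within each library. Cells of the CD8 gate were split into those with UMIs of both Pdcd1 and Havcr2, the genes of the exhaustion receptors PD-1 and TIM-3 (1004 in the CD147-LYTACs library and 1250 in the control library), and those with Tcf7, the gene of the progenitor factor TCF1, without either (91 and 173). The split was chosen after values had been seen, and the double-positive cells were deeper, at medians of 7659 and 7555 UMIs against 4980 and 4985 in the Tcf7 cells. Klre1 stood at 179 CPM in double-positive and 61.0 CPM in Tcf7 cells of the CD147-LYTACs library, and at 138 and 38.5 CPM in the control library. That is a fold of 2.94 in the CD147-LYTACs library and 3.58 in the control library. Klrd1 was 1.90-fold and 1.51-fold higher in double-positive cells and Klrc1 1.502-fold and 1.48-fold. Klrk1 differed by 1.19-fold and 1.13-fold and Klrc2 by 0.991-fold and 1.08-fold, all with counting intervals that include no difference.

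Between the libraries, the direction of Klre1 and Klrc1 was alike in the states with Pdcd1. In double-positive cells the log2 ratio of Klre1 was 0.38 (0.28 to 0.48) and that of Klrc1 was -0.22 (-0.27 to -0.16). In cells with Pdcd1 without Havcr2 the values were 0.31 (0.10 to 0.52) and -0.35 (-0.45 to -0.24). In the Tcf7 cells the intervals of both genes included 0, at 0.66 (-0.06 to 1.37) and -0.24 (-0.51 to 0.02).

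**Figure D4:**
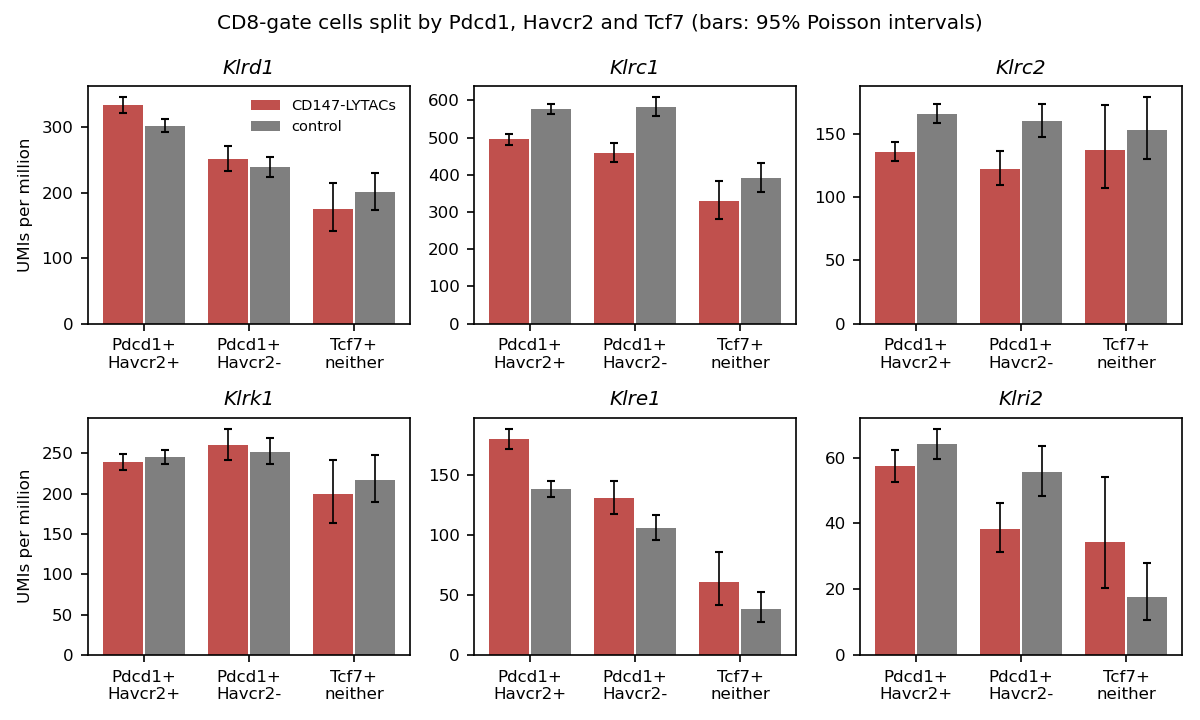
Levels of 6 members (panels; y axis in CPM, from 0) in CD8-gate cells with Pdcd1 and Havcr2, with Pdcd1 without Havcr2, and with Tcf7 without either (x axis), for the CD147-LYTACs library (red) and the control library (grey), with 95% Poisson intervals. Klre1 is highest in the double-positive cells of both libraries, and the Klrc2 and Klrk1 bars are of similar height across states.

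Adaptors set what an activating member can do. In the NK gate Tyrobp stood at 877 CPM in the CD147-LYTACs library and 830 CPM in the control library. Tyrobp and Fcer1g, both in the adaptor and signalling list, are also in the rule of this gate, which partly sets their levels there. Hcst, for NKG2D signalling, stood at 179 and 247 CPM there and at 299 and 314 CPM in the CD8 gate. In the NK gate 0 of 14 tested genes of the adaptor and signalling list were past 1.5-fold higher and 1 was lower, Cd226, a costimulatory receptor gene, at 23.4 and 76.3 CPM. Over all genes tested in the NK gate the shares were 5.52% higher and 8.85% lower. In the CD4, Foxp3 and DN gates 0 genes of this list passed 1.5-fold in either direction, of 12, 10 and 14 tested. Over all genes tested in those gates, 3.82%, 6.53% and 3.65% were higher and 5.15%, 9.32% and 4.71% lower. Of the transcription factor list, 3 of 10 tested genes were past 1.5-fold lower in the NK gate of the CD147-LYTACs library and 0 higher, beside the same 8.85% and 5.52%. They were Tcf7 at 93.7 and 156 CPM, Tox at 106 and 203 CPM and Ikzf2 at 696 and 1109 CPM. Eomes, the T-box factor of NK cells, stood at 366 and 380 CPM. In the Foxp3 gate 2 of 9 were lower, Prdm1 at 98.1 and 189 CPM and Nfil3 at 85.2 and 154 CPM, beside 9.32% of all genes tested. In the DN gate 1 of 13 was lower, Zeb2 at 525 and 788 CPM, beside 4.71%. In the CD8 and CD4 gates 0 of 12 and 0 of 11 were lower, beside 1.87% and 5.15%. No gene of this list was past 1.5-fold higher in these 5 gates.

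RNA of ligands for several of the receptors was counted in the hepatoma gate. H2-T23, the gene of Qa-1, which presents to the CD94/NKG2 receptors, stood at 174 CPM in the hepatoma gate of the CD147-LYTACs library and 180 CPM in that of the control library. The NKG2D ligand genes Raet1e and Ulbp1 stood at 21.2 and 21.4 CPM and at 21.1 and 22.0 CPM, and H60b at 5.41 and 4.35 CPM, against 0.335 and 0.459 CPM for H60b in the CD8 gate. Clec2d, the ligand of NKR-P1B, stood at 10.0 and 10.2 CPM, below its 36.5 and 39.3 CPM in the CD8 gate. The part of free RNA in these levels was not tested. These were level between the libraries apart from H60b, with a log2 ratio of 0.31 (0.12 to 0.51).

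The classical class I genes were uneven in the tumour cells. H2-D1 stood at 1603 CPM in the hepatoma gate of the CD147-LYTACs library and 1444 CPM in that of the control library, while H2-K1 stood at 13.2 and 8.12 CPM. In the NK gate of the CD147-LYTACs library H2-K1 stood at 2479 CPM. H2-K1, with a log2 ratio of 0.70 (0.57 to 0.84), and Cdh1, the gene of E-cadherin and a ligand of KLRG1, at 5.75 and 2.39 CPM, were the 2 of 12 tested ligands past 1.5-fold higher, with 0 lower, against 2.61% higher and 3.72% lower of the 15021 genes tested there. Cdh2, the gene of N-cadherin, stood at 41.3 and 42.6 CPM. In the CD8 gate H2-K1 stood at 2199 and 2258 CPM. Among T-cell genes, which tumour cells should lack, Cd3e stood at 0.245 and 0.483 CPM in the hepatoma gate, against 326 and 323 CPM in the CD8 gate. The 6 listed T-cell markers together summed to 63.3 and 69.1 CPM in the hepatoma gate and 4173 and 3370 CPM in the CD8 gate. The part of free RNA in the H2-K1 level was not tested.

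**Figure D5:**
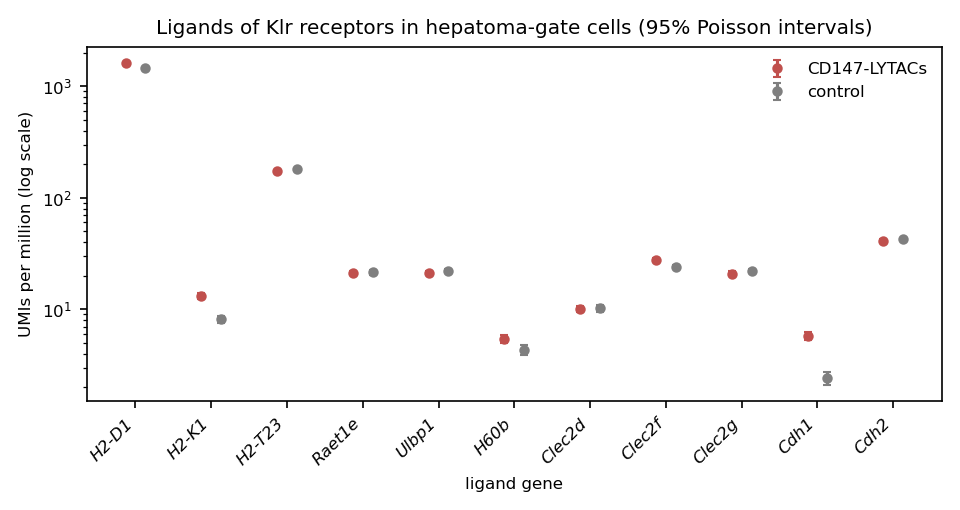
Levels of 11 ligand genes in hepatoma-gate cells (y axis, CPM on a log scale; x axis, ligand gene), CD147-LYTACs library (red) left of the control library (grey), with 95% Poisson intervals. H2-D1 stands above 1000 and H2-K1 near 10, and the Cdh1 and H2-K1 points of the CD147-LYTACs library lie above those of the control library.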

How the data were processed

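Droplet single-cell libraries of CD147-LYTACs and control Hepa1-6 tumours, 1 of each, were analysed from the deposited UMI counts per gene and barcode (9219 and 8150 barcodes; 149812326 and 143495332 UMIs). The count matrices name Cell Ranger 7.1.0, per the file headers, whereas Cell Ranger 3.0.2 and mm10 are given per the submitters' processing notes; further settings are not given in the sources used here. Members and lists were chosen with earlier results of these data known.

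Barcodes with at least 500 UMIs, 300 genes and at most 15% mitochondrial UMIs were kept, and the highest Scrublet scores (scanpy 1.11.5) were removed at 0.8% per 1000 barcodes, 535 in the CD147-LYTACs library and 402 in the control library. A T cell held at least 2 UMIs of Cd3d, Cd3e and Cd3g, and gates followed Cd8a or Cd8b1, Cd4 and Foxp3. An NK cell held at most 1 UMI of Cd3 genes and Trac, Nkg7, and at least 2 UMIs of Ncr1, Tyrobp and Fcer1g. T and NK barcodes with at least 5 UMIs of macrophage, neutrophil, hepatoma or fibroblast lists, or 3 of dendritic, B or mast lists, were left out. The hepatoma, neutrophil, macrophage and dendritic thresholds, the splits of the CD8, CD4 and DN gates, and the values without the top cell were chosen after seeing the data.

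UMIs were summed over the cells of a gate and divided by all UMIs of that gate. Ratios carry exact conditional binomial intervals, levels exact Poisson intervals and shares Clopper-Pearson intervals, all at 95% and for counting error only. Where a sum or share was 0, the floor was 3 counts per library. Counts past 1.5-fold took the genes whose UMIs in the gate reached 50 when both libraries were added. There was no test and no p-value, since each condition has 1 library. Named members are those with at least 50 UMIs in at least 1 gate; others are given by their UMI totals, and other genes come from lists of adaptors, ligands and transcription factors or from cell markers. Scripts were tested on simulated data. Positions are from GENCODE M21 (GRCm38) and promoter windows from RefSeq (GRCm38.p6). Python 3.11.15, numpy 2.4.6, scipy 1.17.1 and pandas 2.3.3 were used.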

Additional observations from a re-analysis of the deposited data

Results flagged for a closer look

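Klrb1b leaned in opposite directions in 2 cell types. Its log2 ratio of the CD147-LYTACs library over the control library was 0.86 in the CD8 gate and -2.96 in the monocyte or macrophage gate. The difference between the gates was not tested, since each condition has 1 library. In the CD8 gate 1 cell of the CD147-LYTACs library held 20 of the 76 UMIs, and in the monocyte or macrophage gate of the control library 1 cell held 22 of the 87.

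Klra7 had a log2 ratio of 1.29 in the DN gate and -1.47 in the CD8 gate, from 33 and 21 UMIs in the DN gate and 11 and 40 UMIs in the CD8 gate of the CD147-LYTACs and control libraries. This difference was not tested either. Klra7 was level in the NK gate, with a log2 ratio of 0.02.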

How the results depend on the processing

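The summed Klr log2 ratios kept their sign in the NK, CD8, CD4, Foxp3 and DN gates under all 9 alternatives run for each, and the cause of the shifts was not tested. With barcodes that hold markers of another lineage kept, the ratio was -1.35 in the NK gate, -0.16 in the CD8 gate, 0.21 in the CD4 gate and -0.49 in the DN gate, and 13 members of the NK gate passed 1.5-fold in place of 2. With an Ncr1 UMI required, which leaves 16 cells of the CD147-LYTACs library and 20 of the control library, the NK ratio was -0.0561. In the CD8 gate it was -0.0310 with a size factor from the median gene ratio and -0.0165 without mitochondrial and ribosomal protein genes. As a mean over cells the CD4 ratio was 0.15. The number of NK-gate members past the fold was 4 with all deposited barcodes, 4 at a minimum of 20 UMIs, 9 at a minimum of 1 UMI and 1 at 2-fold. In the CD8 gate it was 1 in place of 3 with doublets removed at 1.6% per 1000 barcodes, 6 at 20 UMIs and 12 at 1 UMI. Without the cell with most UMIs of the gene in each library, Klrk1 in the NK gate passed 1.5-fold lower at -0.62, and no other member with 50 UMIs in a T or NK gate changed its side of the fold. No paired analysis was possible because each condition has 1 library. Depth limits the NK values, from 99 and 89 cells: at 1000 UMIs per cell a share of 0 allows, at 3 counts, up to 3.09% and 3.37% of cells with a UMI.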

Other observations

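Among members too rare for the comparisons, Klrg2 had 41 UMIs over all deposited barcodes of the CD147-LYTACs library and 26 in the control library, and Klra10 had 3 and 1. Klra6 had 18 and 45 UMIs. In the hepatoma gate Klra5, the gene of Ly49E, had 22 UMIs in 20 cells of the CD147-LYTACs library and 66 UMIs in 47 cells of the control library (log2 ratio -1.66, interval -2.43 to -0.94), where the NK gate held 2 and 17. In the CD8 gate 1 cell of the control library held 32 of the 34 Klra4 UMIs of that library, so that the Klra4 ratio there describes a cell and not the gate.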
